A study of Rattus norvegicus with 15 samples.

Results

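The 10 genes described here span Wnt signalling in rat mammary tumours, from ligands (WNT5A, WNT5B, WNT7B) and secreted inhibitors (SFRP1, SFRP2) through beta-catenin and its DNA-binding partners (CTNNB1, LEF1, TCF7) to feedback genes (AXIN2, NKD1). The genes were taken by symbol from the deposited count table, which held 9 of the 10 among its 17463 symbols, and TCF7 was not analysed here. All 9 passed the filter on low counts. Tumours of both groups were induced in Fischer rats with the carcinogen NMU (N-nitroso N-methylurea), injected intraperitoneally at 50 mg/kg on 2 occasions. In the midkine group (9 libraries) each injection followed 2 weeks of midkine protein, a heparin-binding growth factor, dosed at 300 ug/kg and 3 times weekly, while the vehicle group (6 libraries) carries vehicle as its treatment label. Each library is bulk poly(A)-selected RNA from cut tumour tissue, so all cells of the piece contribute, and fewer cells of a type cannot be told apart from less RNA per cell. Age and number of rats are not given in the labels.

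Wnt ligands are lipid-modified secreted proteins that bind Frizzled receptors. In the canonical branch this stops the destruction complex from marking beta-catenin for degradation, and beta-catenin then joins LEF1 or a TCF factor on target genes, of which AXIN2 and NKD1 are classic examples because both dampen the pathway in return. Other ligands, WNT5A among them, act largely without beta-catenin through receptors such as ROR2. Wnt signalling shapes the embryonic mammary bud and the branching ducts in the mouse, and forced WNT1 expression in mouse mammary epithelium gives tumours.

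The promoters of the feedback genes are shown because they carry the letters that TCF and LEF factors are known to recognise. RefSeq promoter sequences (build GRCr8, 250 bases before to 50 bases after the start site) were at hand for 7 of the 10 genes, not for SFRP1, WNT5B and WNT7B. The counts were made on another build, rn6. The 7 promoters were searched on both strands for the words CTTTGAA or CTTTGAT as well as CTTTGTA or CTTTGTT, and capitals mark the matches. AXIN2 lies at chr10:94398535-94398834 on the + strand and NKD1 at chr19:34722797-34723096 on the - strand.
AXIN2: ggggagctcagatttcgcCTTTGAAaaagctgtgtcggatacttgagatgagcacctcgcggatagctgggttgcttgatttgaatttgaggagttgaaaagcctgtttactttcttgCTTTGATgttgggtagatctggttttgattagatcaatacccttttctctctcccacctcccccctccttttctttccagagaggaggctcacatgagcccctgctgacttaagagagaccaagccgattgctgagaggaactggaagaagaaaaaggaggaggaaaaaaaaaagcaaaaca
NKD1: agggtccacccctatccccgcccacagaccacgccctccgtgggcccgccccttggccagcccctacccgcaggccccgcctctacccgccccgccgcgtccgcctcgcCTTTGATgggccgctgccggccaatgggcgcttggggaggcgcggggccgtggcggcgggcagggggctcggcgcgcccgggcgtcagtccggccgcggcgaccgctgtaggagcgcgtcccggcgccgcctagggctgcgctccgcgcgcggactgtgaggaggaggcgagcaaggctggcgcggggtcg
AXIN2 held 2 matches, CTTTGAA beginning 232 bases and CTTTGAT beginning 132 bases before the start site. NKD1 held CTTTGAT beginning 141 bases before it. At least 1 of the 4 words occurred in 17.1% of all 33469 promoters of this length, and CTTTGAT on either strand in 3.63%. None of the 4 words was found in these windows of CTNNB1, LEF1, SFRP2 and WNT5A, and the window of TCF7 held CTTTGAT beginning 4 bases before its start site. Only 1 window was searched per gene. Words near other start sites of a gene would be missed, and which start sites these tumours use was not examined.

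Counted reads per library ran from 5554514 to 8486523 in midkine and from 4925504 to 7720135 in vehicle tumours, so 1 read stood for 0.117 to 0.238 CPM. CPM here is the count scaled to library size, with trimmed mean of M-values (TMM) factors. All 12 general epithelial markers had reads in every library, with summed levels of 2807 to 13631 CPM in midkine and 6331 to 8923 CPM in vehicle tumours. Midkine 1 held 388878 summed CPM of 10 skeletal muscle markers, against at most 4005 CPM in any other library. Midkine 3-1, 3-2, 4-1, 4-2 and 4-3 had at most 1 read of the muscle myosin MYH4, which every other library carried. These 5 libraries are all those of midkine title numbers 3 and 4, and for the genes named below fold changes without them are given where these move by over 1.5 times or change sign. No label says whether libraries that share a title number come from 1 rat, so p-values measure the spread between libraries, some of which may lie within a rat.

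None of the 9 Wnt genes differed between midkine and vehicle tumours by edgeR's quasi-likelihood test at an adjusted p under 0.05, and over all 11665 genes tested 0 passed (0%). At an unadjusted p under 0.05 there were 0 of the 9 genes, against 10.1% of all genes. DESeq2 called 0 of the 9 and 0.662% of all genes with an adjusted p, and limma-voom called 0 genes (0%) with 602 at an unadjusted p under 0.05 and put 0 of the 9 at an unadjusted p under 0.05. For 5 of the 9 genes the fitted log2 fold change was below 0, as for 44.3% of all genes. For none of the 9 did midkine and vehicle libraries stand apart without overlap, as they did for 0.0171% of all genes. The spread over the 15 libraries, as a standard deviation of log2 CPM, exceeded that of 98.5% of all genes for LEF1, 97.5% for WNT5B, 95.6% for WNT7B and 94.9% for SFRP2, and that of 33.3% for CTNNB1.

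**Figure D1:**
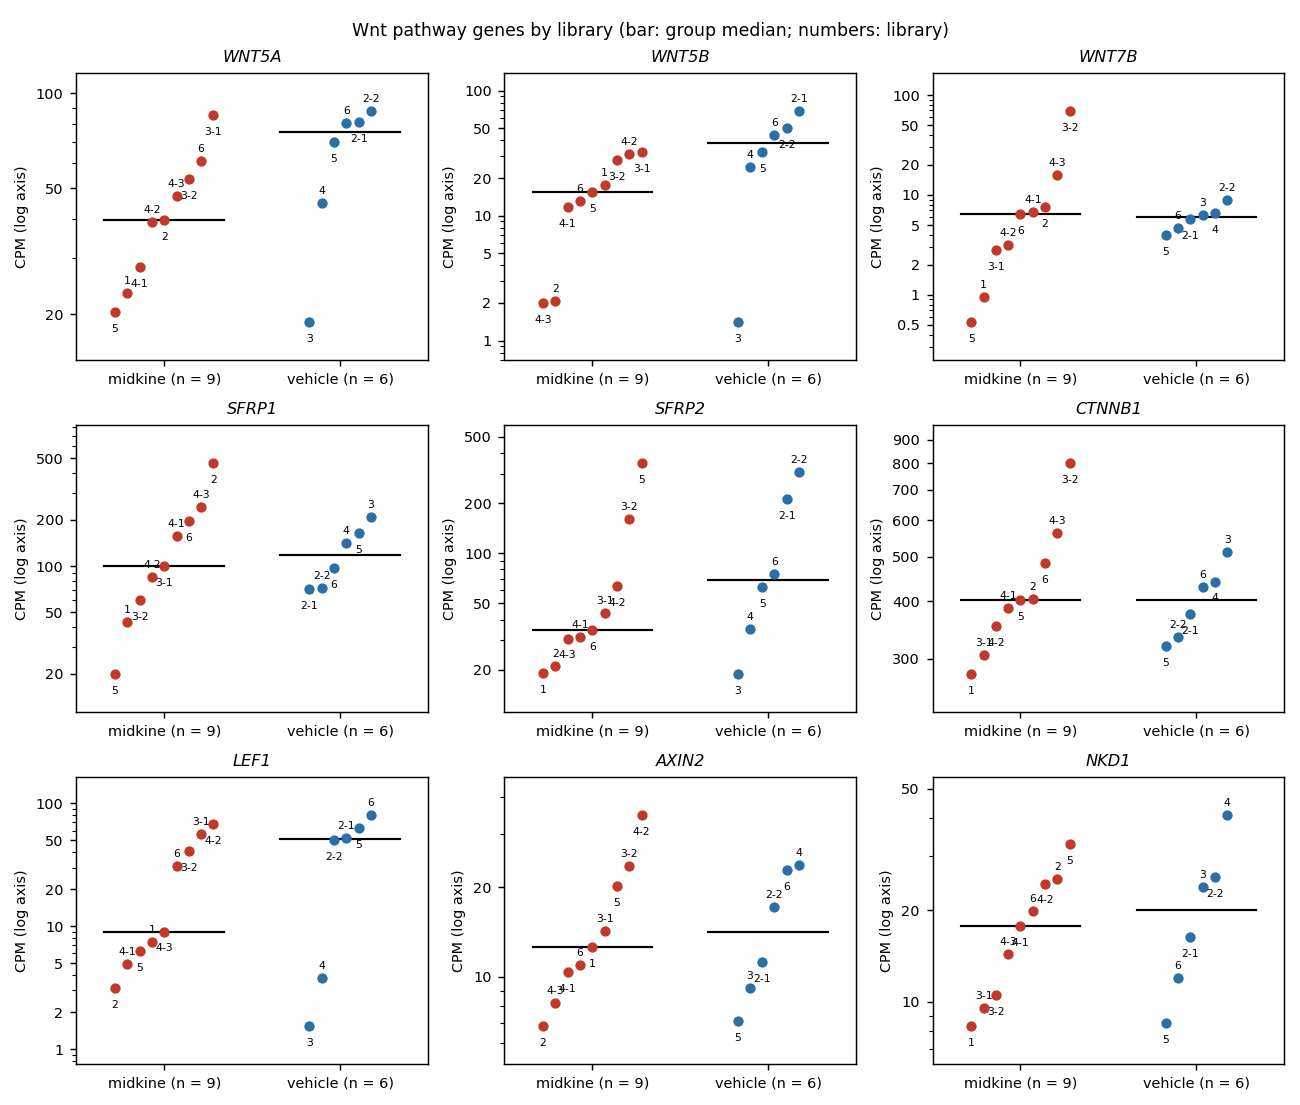
CPM (log axis) of the 9 Wnt genes in midkine libraries (left, n = 9) and vehicle libraries (right, n = 6), 1 point per library with its number and the group median as a bar. The groups overlap in every panel, LEF1 and WNT5B split into high and low libraries within both groups, and midkine 3-2 stands alone at 68.9 CPM of WNT7B.

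Among the ligands, WNT5A and WNT5B had lower group means in midkine tumours without passing the test. WNT5A, a ligand of the beta-catenin-independent branch, ran from 20.3 CPM (midkine 5) over a median of 39.7 to 85.1 CPM (midkine 3-1) in midkine tumours. In vehicle tumours it ran from 18.9 CPM (vehicle 3) over a median of 75.2 to 87.7 CPM (vehicle 2-2). Most vehicle libraries lay high and vehicle 3 lay below every midkine library. The means were 44.1 ± 20.5 CPM (SD, n = 9) and 63.8 ± 26.7 CPM (SD, n = 6), with a log2 fold change of -0.53 (SE 0.34, adjusted p = 0.644).

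WNT5B, the close paralogue of WNT5A, ran from 1.98 CPM (midkine 4-3) over a median of 15.3 to 32.5 CPM (midkine 3-1) in midkine tumours. Vehicle tumours held from 1.41 CPM (vehicle 3) over a median of 38.3 to 68.5 CPM (vehicle 2-1). Midkine 2, midkine 4-3 and vehicle 3 formed a low set at up to 2.09 CPM, and the next library stood 5.65-fold higher at 11.8 CPM. The means were 17.0 ± 11.5 CPM and 36.8 ± 23.0 CPM in midkine and vehicle tumours (SD, n = 9 and 6). This gave a log2 fold change of -1.11 (SE 0.64, adjusted p = 0.596 by edgeR). It was -0.84 without vehicle 2-1 and -1.37 without vehicle 3, and its direction held in every setting tried.

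WNT7B, a ligand of the canonical branch made by mammary epithelium in the mouse, turned on 1 library. Midkine tumours ran from 0.534 CPM (midkine 5, 3 reads) over a median of 6.46 to 68.9 CPM (midkine 3-2), and vehicle tumours from 3.96 over a median of 6.03 to 8.88 CPM. The second highest library, midkine 4-3, held 15.8 CPM, so midkine 3-2 stood 4.37-fold above it. The midkine libraries thus reached both above and below the narrow vehicle range, with 2 above and 4 below all 6 vehicle libraries. Over all libraries WNT7B had a log2 fold change of 1.06 (SE 0.82, adjusted p = 0.721), and it had -0.13 (SE 0.55) without midkine 3-2.

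Of the secreted inhibitors, which carry a Frizzled-like domain and bind Wnt ligands outside the cell, SFRP1 ranged from 19.9 CPM (midkine 5) over a median of 100 to 467 CPM (midkine 2) in midkine tumours. In vehicle tumours it ranged from 70.9 over a median of 119 to 209.7 CPM (vehicle 3). Midkine libraries again lay on both sides, 2 above and 3 below every vehicle library. For SFRP1 the fitted log2 fold change came to 0.28 (SE 0.54, adjusted p = 0.907), and without midkine 2 to -0.15 (SE 0.46).

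SFRP2, a related inhibitor that is abundant in fibroblasts, ran from 19.0 CPM (midkine 1) over a median of 34.8 to 348 CPM (midkine 5) in midkine tumours. It ran from 18.9 CPM (vehicle 3) over a median of 68.7 to 308 CPM (vehicle 2-2) in vehicle tumours. In both groups 2 libraries stood far above the rest, midkine 5 and 3-2 (160 CPM) and vehicle 2-2 and 2-1 (211 CPM), while the other 11 held at most 74.8 CPM. Vehicle 2-2 and 2-1 share a title number and may come from 1 rat, which no label settles. Midkine 5 also held 130543 summed CPM of 10 fibroblast markers, of which COL1A2 was at 0 in some libraries. The next midkine library held 7287 CPM. Midkine 3-2, vehicle 2-2 and vehicle 2-1 held 6683, 3197 and 1527 CPM. Vehicle 4, the highest vehicle library at 8672 CPM, had 35.0 CPM of SFRP2. Over the 15 libraries SFRP2 and the mean marker level had r = 0.44 (permutation p = 0.101). Its adjusted p was 0.34 over 72 relations of genes and marker lists. Without midkine 2 and midkine 5 r was 0.03. Spearman's rho was 0.85 within midkine and 0.26 within vehicle tumours. It was 0.82 and 0.26 with endothelial and 0.70 and 0.09 with T cell markers. The remaining lists lay between -0.40 and 0.42 within midkine tumours. Over the 15 libraries rho was 0.35 with fibroblast markers and -0.53 with basal and myoepithelial markers (permutation p = 0.0426, adjusted p = 0.251). The part of fibroblasts in the SFRP2 levels was not tested. SFRP2 had a log2 fold change of -0.50 (SE 0.72, adjusted p = 0.871). This became -1.21 without midkine 5, -0.26 without vehicle 2-1 and 0.05 without vehicle 2-2.

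CTNNB1 encodes beta-catenin, whose signalling is set mainly by protein stability and which also sits at cell junctions. Its transcript was the steadiest of the 9, with a standard deviation of 0.39 log2 CPM over the 15 libraries, larger than that of 33.3% of all genes. It ran from 278 CPM (midkine 1) over a median of 403 to 800.1 CPM (midkine 3-2) in midkine tumours, and from 320.4 over a median of 403 to 512 CPM in vehicle tumours. CTNNB1 had a log2 fold change of 0.14 (SE 0.21, adjusted p = 0.883) and of -0.02 (SE 0.17) without midkine 3-2.

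LEF1, the DNA-binding partner of beta-catenin that is also used by lymphocytes, varied most of the 9. Its standard deviation was 1.89 log2 CPM. Midkine tumours ran from 3.13 CPM (midkine 2) over a median of 9.06 to 68.0 CPM (midkine 4-2), and vehicle tumours from 1.55 CPM (vehicle 3) over a median of 51.4 to 80.4 CPM (vehicle 6). The ordered levels broke between 9.06 and 30.6 CPM, a 3.38-fold gap. Above it lay 4 midkine libraries (3-1, 3-2, 4-2 and 6) and 4 vehicle libraries (2-1, 2-2, 5 and 6), and below it lay 5 midkine libraries and vehicle 3 and 4. LEF1 had a log2 fold change of -0.73 (SE 0.80, adjusted p = 0.821), -0.43 without vehicle 6 and -1.78 (SE 1.01) without the midkine libraries of title numbers 3 and 4.

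T cell markers were compared with LEF1 because T cells use it. All 12 markers were in the table and none was at 0 in any library, and their summed level ran from 44.4 over a median of 156 to 1841 CPM in midkine and from 41.4 over a median of 77.6 to 151 CPM in vehicle tumours. Midkine 4-2, with the highest T cell level, had 68.0 CPM of LEF1. Midkine 4-1 had 5.0 CPM of LEF1 at a T cell level of 248 CPM, while vehicle 2-1 had 52.6 CPM of LEF1 at 69.5 CPM. The Spearman rho of LEF1 with the T cell list was 0.77 within midkine and 0.83 within vehicle tumours. Among the 8 libraries above the LEF1 gap it was 0.26 and among the 7 below it 0.36, where the split narrows the range of LEF1. Over all 15 libraries the permutation p of this rho was 0.01995 (adjusted p = 0.239 over 72 relations of genes and marker lists). With basal and myoepithelial markers LEF1 had a rho of -0.50 within midkine and -0.83 within vehicle tumours. Its permutation p over all 15 libraries was 0.0316 (adjusted p = 0.251). In the same order rho was 0.62 and 0.26 with macrophage and -0.60 and -0.09 with skeletal muscle markers. The remaining lists lay between -0.43 and 0.28 in either group. The part of T cells in the LEF1 levels was not tested.

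AXIN2 encodes the scaffold of the destruction complex that is itself induced by canonical signalling. It ran from 6.86 CPM (midkine 2) over a median of 12.6 to 34.9 CPM (midkine 4-2) in midkine tumours, and from 7.14 (vehicle 5) over a median of 14.2 to 23.7 CPM (vehicle 4) in vehicle tumours. The ranges overlapped, with midkine 4-2 above and midkine 2 slightly below every vehicle library. The log2 fold change of 0.05 (SE 0.37, adjusted p = 0.981) was the smallest in size of the 9, and without 1 library it ran from -0.19 (without midkine 4-2) to 0.22 (without vehicle 4).

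NKD1 encodes a Dishevelled-binding feedback inhibitor. Its levels ran from 8.33 CPM (midkine 1) over a median of 17.7 to 32.9 CPM (midkine 5) in midkine tumours and from 8.52 (vehicle 5) over a median of 20.03 to 41.0 CPM (vehicle 4) in vehicle tumours. NKD1 had a log2 fold change of -0.23 (SE 0.36, adjusted p = 0.883), and of 0.07 (SE 0.36) without vehicle 4. AXIN2 and NKD1, the feedback genes whose promoters are printed above, did not follow each other closely over the 15 libraries. Pearson's r was 0.25 (permutation p = 0.372, adjusted p = 0.669 over 36 pairs of the 9 genes) and Spearman's rho 0.23 (permutation p = 0.419, adjusted p = 0.610), and r was 0.12 without vehicle 4 and midkine 1.

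**Figure D2:**
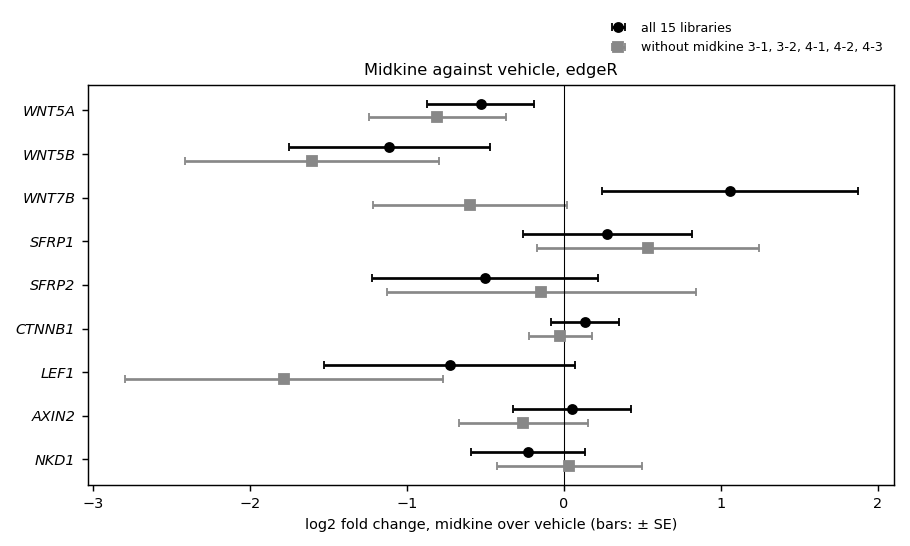
Log2 fold change of midkine over vehicle by edgeR for the 9 Wnt genes, with bars of 1 SE, over all 15 libraries (circles) and without the 5 midkine libraries of title numbers 3 and 4 (squares). WNT5A, WNT5B and LEF1 lie below 0 in both, and WNT7B is at 1.06 in the first and -0.60 in the second.

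Without the midkine libraries of title numbers 3 and 4, again 0 of the 9 genes and 0 of all genes (0%) passed the edgeR threshold. The log2 fold changes were then -0.81 (SE 0.44) for WNT5A, -1.61 (SE 0.81) for WNT5B, -0.60 (SE 0.62) for WNT7B, -0.26 (SE 0.41) for AXIN2 and 0.54 (SE 0.71) for SFRP1. They were -0.14 (SE 0.98) for SFRP2, -0.02 (SE 0.20) for CTNNB1 and 0.04 (SE 0.46) for NKD1.

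Some pairs of the 9 genes varied together, with libraries of both groups on the low and the high side. The size of such relations differed between the groups for some pairs. Midkine 2, midkine 4-3 and vehicle 3, the low set of WNT5B, were the libraries with the 3 highest SFRP1 levels (467, 241 and 209.7 CPM), a coincidence chosen after its values were seen. All 3 were also below the LEF1 gap. Among the 12 libraries outside that low set, WNT5B levels had a Spearman rho of 0.80 with WNT5A, 0.71 with LEF1, 0.55 with SFRP2 and -0.17 with SFRP1. Within groups WNT5A and WNT5B had a rho of 0.18 in midkine (n = 9) and 0.94 in vehicle tumours (n = 6). LEF1 and WNT5B had 0.73 and 0.54, and SFRP1 and WNT5B -0.63 and -0.94, in midkine and vehicle tumours with the low set included. On either side of the LEF1 gap, a split that narrows the range of LEF1, LEF1 and WNT5B had a rho of 0.25 (7 libraries) and 0.33 (8 libraries). Over all 15 libraries 3 of the 36 pairs passed an adjusted p of 0.05 by Spearman's rho, all with WNT5B: LEF1 (permutation p = 0.00075, adjusted p = 0.0270), WNT5A (permutation p = 0.00210, adjusted p = 0.0313) and SFRP2 (permutation p = 0.00261, adjusted p = 0.0313). By Pearson's r LEF1 passed with WNT5A (permutation p = 0.00066) and WNT5B (permutation p = 0.0004), each at an adjusted p of 0.0119. By Spearman's rho LEF1 with WNT5A had an adjusted p of 0.0536. That pair had a rho of 0.36 below the LEF1 gap (7 libraries) and -0.02 above it (8 libraries). The tests over all 15 libraries include the WNT5B low set that stands apart and both sides of the LEF1 gap.

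**Figure D3:**
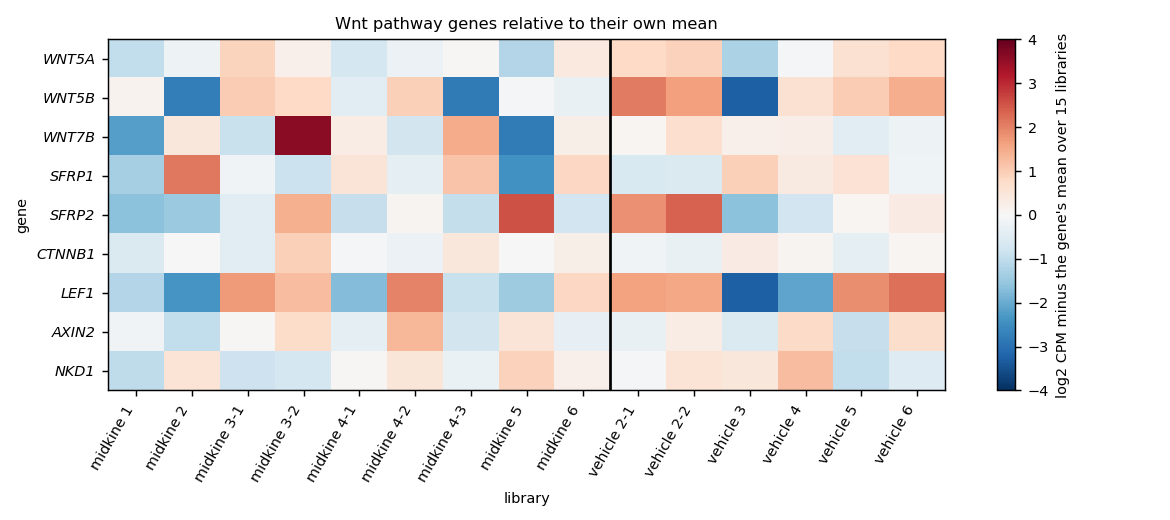
Log2 CPM of each Wnt gene minus its mean over the 15 libraries, midkine libraries left of the line and vehicle libraries right of it. LEF1 and WNT5B are low together in midkine 2 and vehicle 3 and high together in vehicle 2-1, 2-2, 5 and 6, while CTNNB1 stays near its mean outside midkine 3-2.

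The inverse relation of SFRP1 with SFRP2 had a Pearson r of -0.67 (permutation p = 0.00483, adjusted p = 0.0435 over 36 pairs) and a Spearman rho of -0.66 (permutation p = 0.00894, adjusted p = 0.0536). Without vehicle 2-2 and midkine 5 r was -0.51. That of SFRP1 with AXIN2 had r = -0.60 (permutation p = 0.0170, adjusted p = 0.0959) and rho = -0.68 (permutation p = 0.00642, adjusted p = 0.0536), and r was -0.51 without midkine 2 and midkine 5. CTNNB1 and WNT7B, both highest in midkine 3-2, had r = 0.76 (permutation p = 0.00165, adjusted p = 0.0198) and rho = 0.62 (permutation p = 0.0159, adjusted p = 0.0815), and r stayed at 0.76 without midkine 3-2 and midkine 5. For that pair rho was 0.77 within midkine, 0.31 within vehicle and 0.36 without the midkine libraries of title numbers 3 and 4.

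Of 72 relations between the 9 genes and 8 marker lists (all lists but B cell and adipocyte), 1 passed an adjusted p of 0.05 by Spearman's rho, that of SFRP1 with basal and myoepithelial markers. The list, which does not hold SFRP1, had all 11 markers in the table and none at 0, and its summed level ran from 2616 over a median of 6041 to 21743 CPM in midkine and from 6531 over a median of 9354 to 15169 CPM in vehicle tumours. SFRP1 followed its mean level with r = 0.81 (permutation p = 0.00019, adjusted p = 0.00684) and rho = 0.85 (permutation p = 0.00012, adjusted p = 0.00864). It stayed at r = 0.81 without midkine 1 and midkine 3-2, and rho was 0.83 within midkine, 0.71 within vehicle and 0.90 without the midkine libraries of title numbers 3 and 4. Midkine 2 was highest in both, and midkine 1 and 5 had the lowest SFRP1.

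WNT7B followed the general epithelial markers with r = 0.84 (permutation p = 0.00014, adjusted p = 0.00684) and rho = 0.75 (permutation p = 0.00219, adjusted p = 0.0788), and r was 0.86 without midkine 1 and midkine 4-2. The relation was present in midkine tumours (rho 0.83) and not in vehicle tumours (rho 0.09), a difference that was not tested, and rho was 0.47 without midkine title numbers 3 and 4. Epithelial marker levels were highest in midkine 3-2 and 4-3 (13631 and 13022 CPM), the libraries with the most WNT7B, and lowest in midkine 1, 4-2 and 5. CTNNB1 had r = 0.65 with these markers (permutation p = 0.00852, adjusted p = 0.123), and 0.56 without midkine 1 and midkine 4-2. Its rho was 0.60 (permutation p = 0.0197, adjusted p = 0.239), with 0.87 within midkine and 0.09 within vehicle tumours. The part of epithelial content in the relation of CTNNB1 with WNT7B was not tested. AXIN2 with fibroblast markers had r = 0.66 (permutation p = 0.00608, adjusted p = 0.109) and rho = 0.65 (permutation p = 0.0105, adjusted p = 0.239), and r was 0.60 without midkine 2 and midkine 5. No AXIN2 relation passed an adjusted p of 0.05, and other lists gave coefficients near that size. These were T cell (r 0.62, rho 0.56), endothelial (0.56, 0.61), basal and myoepithelial (-0.58, -0.55) and hormone-sensing luminal markers (-0.51, -0.54). With the 2 libraries farthest from each list's median left out, r was 0.23, 0.45, -0.64 and -0.25.

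**Figure D4:**
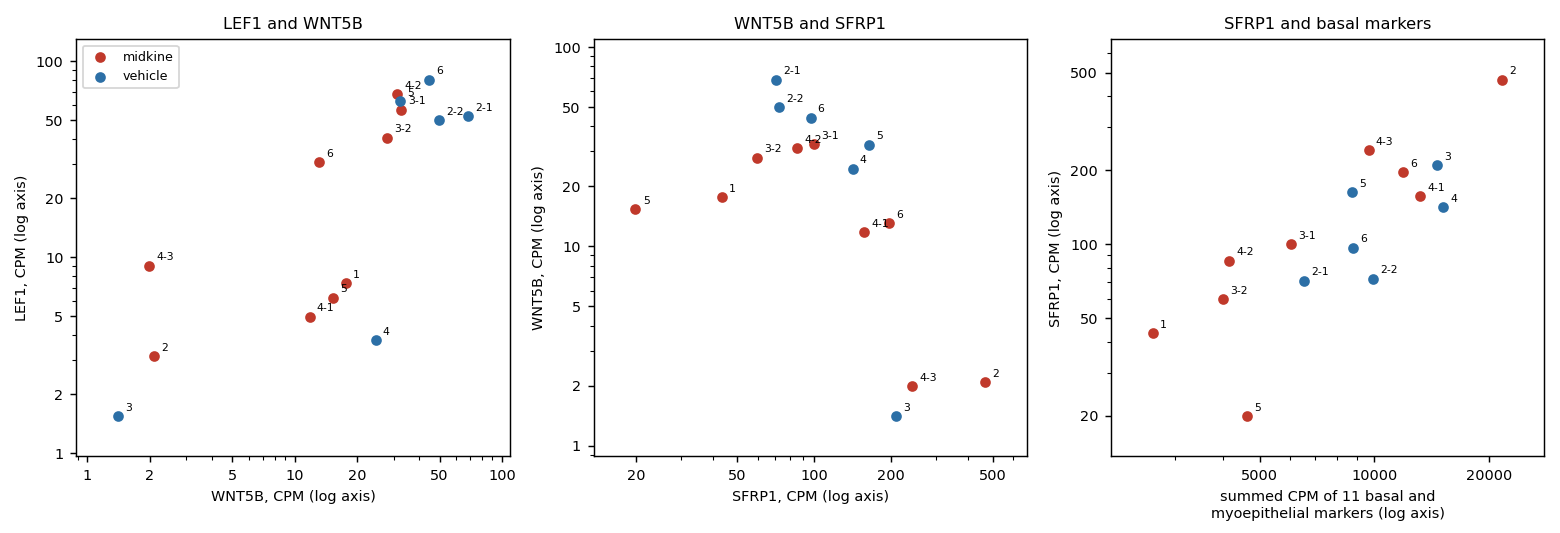
Levels per library on log axes: LEF1 against WNT5B, WNT5B against SFRP1, and SFRP1 against the summed CPM of 11 basal and myoepithelial markers, midkine red and vehicle blue, with library numbers. Midkine 2, midkine 4-3 and vehicle 3 sit alone at low WNT5B and high SFRP1, and SFRP1 runs along the basal marker level.

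The genes most like each Wnt gene over the 15 libraries, out of 11446 compared, are given by their Spearman rho as a description. LEF1 had high values with FRMD8 (0.88) and with SMAD7, an inhibitor of TGF-beta signalling (0.86). WNT5B was nearest to the adrenergic receptor gene ADRA1D (0.91), the channel gene AQP9 (0.91) and NAT8L (0.88), and WNT5A to EVA1A (0.94), MR1 (0.90) and PTN, which encodes the midkine relative pleiotrophin (0.90). WNT7B was nearest to the MAP kinase phosphatase gene DUSP4 (0.95), PGD (0.88) and SEMA6A (0.88).

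SFRP2 was nearest to the transcription factor gene RUNX2 (0.94), NCMAP (0.92) and MFSD12 (0.90), and SFRP1 to the chaperonin gene CCT7 (0.95), RPL32 (0.94) and ENO1 (0.94). AXIN2 was nearest to C1QTNF1 (0.91), the peptide receptor gene ADCYAP1R1 (0.89) and the adaptor gene NCK1 (0.89). NKD1 was nearest to AMIGO2 (0.85), KCNIP3 (0.85) and XKR5 (0.83), and CTNNB1 to the vesicle coat gene COPB1 (0.96), CANX (0.95) and PTBP1 (0.95). No Wnt gene was among the 3 nearest of another.

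The rest of the pathway was read from 9 lists that together held 117 genes, of which 108 were in the table and 88 were tested. No list gene passed the edgeR threshold in either direction (0 of 88, against 0% of all genes). An unadjusted p under 0.05 was reached by 4 genes higher and 7 lower in midkine tumours, against 7.96% and 2.13% of all genes. The fitted log2 fold change was below 0 for 61 of the 88 (69.3%, against 44.3% of all genes), with a median of -0.17 against 0.04 over all genes. Cell type markers split in the same fit. Below 0 were 9 of 12 general epithelial, 10 of 10 hormone-sensing luminal and 9 of 11 basal and myoepithelial markers. So were 1 of 9 fibroblast, 0 of 12 T cell, 0 of 8 macrophage, 0 of 11 endothelial and 0 of 10 skeletal muscle markers. The part of cell content in the pathway values was not tested. DESeq2 called 1 of the 88, the secreted inhibitor gene SFRP4, against 0.662% of all genes. With midkine title numbers 3 and 4 left out the log2 fold change was -0.07 for WLS, -0.0026 for PORCN, 0.19 for GSK3B, 0.57 for TNKS2, -0.41 for ROR2 and -0.21 for DKK2.

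Of 19 Wnt ligand genes listed, 18 were in the table, 10 passed the filter and 0 passed the test, 7 of the 10 with values below 0 and a median of -0.33. WNT4, a ligand downstream of the progesterone receptor in mouse mammary gland, averaged 27.2 ± 15.9 CPM in midkine tumours, against 53.9 ± 36.1 CPM in vehicle tumours (log2 fold change -0.99, SE 0.44, adjusted p = 0.470), and had -0.55 without vehicle 3, which held 125 CPM. WNT9B stood at -1.62 (SE 0.79), and at -0.97 without vehicle 4. Its level was low, with medians of 1.48 CPM in midkine and 1.63 CPM in vehicle tumours. Vehicle 4 and vehicle 2-2 held 82 and 60 reads, the other vehicle libraries at most 13 and midkine libraries at most 20. Midkine 5 and vehicle 5 held 0 reads. WNT1, WNT3, WNT3A, WNT7A, WNT8A, WNT8B, WNT10B and WNT16 did not pass the filter, and none of them had more than 15 reads in a library.

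The ligand export genes WLS and PORCN both lay slightly below 0, WLS at -0.23 (SE 0.23) and PORCN at -0.14 (SE 0.26), with 0 past the test. WLS was at -0.13 without vehicle 3, -0.40 without midkine 2 and -0.15 without midkine 4-2. Of 14 receptor genes tested, 12 had values below 0, with a median of -0.38 and 0 past the test. The co-receptor gene LRP5 averaged 222 ± 66.8 CPM in midkine tumours, against 305 ± 42.6 CPM in vehicle tumours (log2 fold change -0.46, SE 0.19, adjusted p = 0.441, and -0.22 without midkine title numbers 3 and 4). The receptor gene FZD4 went the other way at 1.55 (SE 0.63), with 251 CPM in midkine 1 against 38.1 CPM in the next midkine library, and was at 0.60 without midkine 1.

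Secreted inhibitors were the list with the highest median, 0.19, with 6 of 10 genes above 0 and 0 past the edgeR test. SFRP4 ran from 0.447 over a median of 12.5 to 27.8 CPM in midkine and from 0.793 over a median of 2.06 to 4.78 CPM in vehicle tumours, with 7 of 9 midkine libraries above all vehicle libraries. Its log2 fold change was 2.52 (SE 0.71, adjusted p = 0.399) by edgeR and 2.56 (SE 0.64, adjusted p = 0.0309) by DESeq2. Fibroblast markers, which stood higher in the fit for 8 of 9 tested, ran from 211 over a median of 5204 to 130543 summed CPM in midkine and from 438 over a median of 1826 to 8672 CPM in vehicle tumours, and their part in the SFRP4 difference was not tested. DKK2 stood at 0.94 (SE 0.59), and at 0.53 without midkine 4-2.

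In the R-spondin axis, which boosts Wnt reception, RSPO3 averaged 10.4 ± 7.16 CPM in midkine tumours, against 32.4 ± 33.2 CPM in vehicle tumours (log2 fold change -1.63, SE 0.56, adjusted p = 0.399). Vehicle 5 held 98.5 CPM against 28.6 CPM in the next vehicle library, and without it the value was -0.88. The receptor gene LGR4 had -0.41 (SE 0.18), and 3 of the 4 genes tested were below 0, with a median of -0.36 and 0 past the test. The 15 genes of Dishevelled and the destruction complex centred on 0.00, with 7 above and 8 below 0 and 0 past the test. Of its genes GSK3B stood at 0.40 (SE 0.21), or 0.22 without midkine 3-2, and TNKS2 at 0.30 (SE 0.23), or 0.06 without midkine 1.

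Of 15 nuclear partners tested, 11 were below 0, with a median of -0.20 and 0 past the test. The co-repressor genes TLE2 (-0.60, SE 0.27) and TLE1 (-0.38, SE 0.22) were the nearest to it, and TLE2 had -0.33 without vehicle 2-1. Of 13 feedback and target genes tested 8 were below 0, with a median of -0.14 and 0 past the test. The list holds 1 gene that encodes an E protein and no beta-catenin partner, and without it 8 of 12 were below 0 with a median of -0.17, and 61 of the 87 pathway genes. CCND1, which encodes cyclin D1, averaged 584 ± 253 CPM in midkine tumours, against 1000.4 ± 248 CPM in vehicle tumours, with 7 of 9 midkine libraries below all vehicle libraries (log2 fold change -0.78, SE 0.27, adjusted p = 0.399). The receptor gene PROCR stood at 1.96 (SE 0.81), and at 0.06 without midkine title numbers 3 and 4 and 0.43 without midkine 3-2, which held 234 CPM against 25.0 CPM in the next midkine library. Of 13 planar polarity genes 11 were below 0 and 0 passed, with a median of -0.26, VANGL2 at -0.77 (SE 0.33) and the WNT5A receptor gene ROR2 at -0.64 (SE 0.31).

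**Figure D5:**
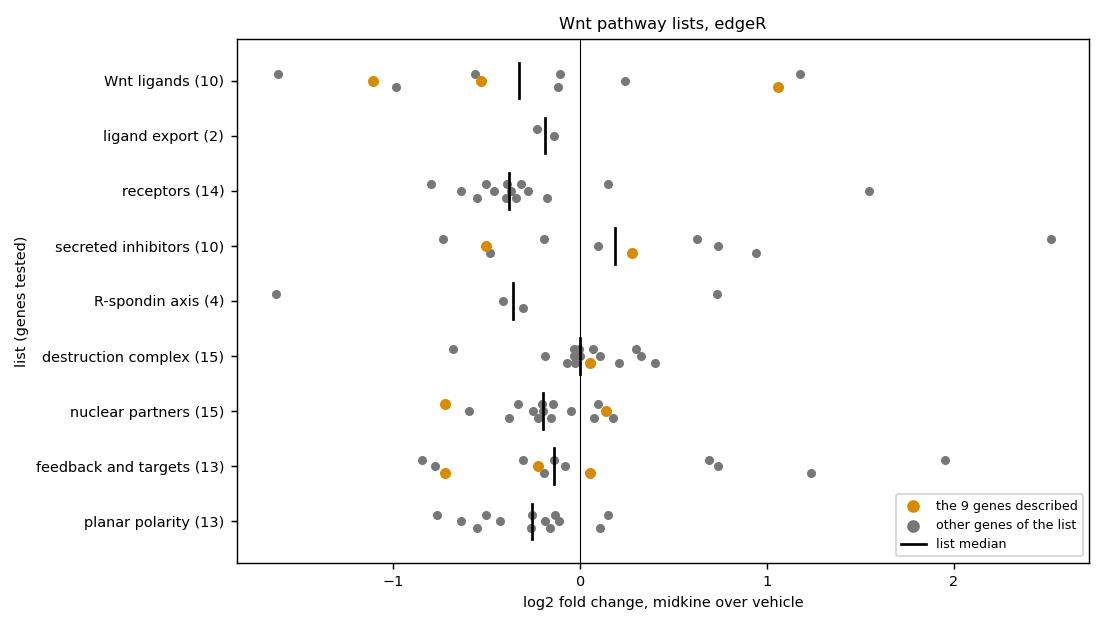
Log2 fold change of midkine over vehicle for every tested gene of 9 Wnt pathway lists, 1 point per gene, with the 9 genes described in orange and the list median as a bar. Receptors and planar polarity genes lie mostly below 0, SFRP4 is the point farthest to the right at 2.52, and no point passed the edgeR threshold.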

How the data were processed

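Counts of reads per gene symbol in 15 libraries came from 1 table that the authors deposited, whole numbers with no sign of normalization. The submitters' processing notes name the build rn6. The sources used here do not give the aligner version, strand setting or annotation, and overlapping or antisense genes may therefore share reads. Samples were grouped by the treatment label and named by group and title number.

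Counts were fitted in R 4.3.3 with edgeR 4.0.16: expression filter by group (minimum count 10, minimum total 15), TMM scaling, quasi-likelihood F test of midkine against vehicle, Benjamini-Hochberg adjustment over all 11665 genes and a threshold of 0.05. A standard error is the fold change divided by the root of F. DESeq2 1.42.0, limma-voom 3.58.1, other scalings, no filter, a title-number block, summed libraries and left-out libraries were alternatives. The edgeR, DESeq2 and limma-voom tests were tested on simulated data. Log2 CPM used a prior count of 2. Relations over libraries were tested two-sided with 100000 permutations. Replicates differed beyond sampling noise, with chi-square per degree of freedom of at least 20.3.

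Genes named beyond the 9 are the 2 of smallest p in each pathway list and the 3 nearest by Spearman rho among genes averaging 0 or more in log2 CPM, placeholder symbols left out, of which 1 gene is not reported here. The genes and lists were chosen with earlier results of these data known.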

Additional observations from a re-analysis of the deposited data

Results flagged for a closer look

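Single libraries stood apart from the rest of their group, by the gap to the next library over the range of the group, for 11 of 54 sets of values (27 genes in 2 groups). Chance gives about 1 in 20 where values are not skewed. The share of such sets over all genes was not computed, so the 11 cannot be set against a general rate. Genes beyond the Wnt genes described were picked by smallest p in these same data. Whether that choice favours genes with such a library was not tested. On log2 CPM, a scale added after seeing the data, 6 sets had such a library, 4 of them among the 11 (FZD4, GSK3B, PROCR and TNKS2). The others lay on the low side, for PORCN in midkine and WNT5B in vehicle tumours. On CPM the Wnt genes described that had such a library, none of which had one on log2 CPM, were SFRP1 in midkine 2 (467 CPM, next 241), SFRP2 in midkine 5 (348 CPM, next 160) and WNT7B in midkine 3-2 (68.9 CPM, next 15.8).

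Midkine 3-2 was also alone for PROCR (234 CPM) and GSK3B (69.1 CPM), and midkine 1 for FZD4 (251 CPM) and TNKS2 (387 CPM). Vehicle 3 was alone for WNT4 (125 CPM) and WLS (410.2 CPM), and vehicle 5 for RSPO3 (98.5 CPM) and CCND1 (1473 CPM). All 11 lay on the high side on CPM.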

How the results depend on the processing

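DESeq2 called 92 genes where edgeR called 0, and 0 of the 9 Wnt genes were called in any setting. WNT5A, WNT5B and LEF1 were below 0 in every setting. The direction turned as follows, and the cause was not tested. Without the midkine libraries of title numbers 3 and 4 it turned for CTNNB1 (-0.024), AXIN2 (-0.26), NKD1 (0.036), WNT7B (-0.60) and DKK2 (-0.21). With limma-voom it turned for AXIN2 (-0.021), SFRP1 (-0.12) and WNT7B (-0.082), with DESeq2 for WNT7B (-0.12), and with total counts alone for AXIN2 (-0.084). Libraries of 1 group and title number summed gave AXIN2 -0.061 and SFRP2 0.097. With the title number as a replicate block AXIN2 had -0.060, SFRP2 0.26 and PORCN 0.0071, with 0 genes called. The labels do not say whether title numbers pair rats across groups. In their deviations the 9 pairs of the same number across groups correlated between -0.44 and 0.19. The 45 pairs of different numbers across groups correlated between -0.31 and 0.39. Of 15 libraries 1 correlated best with its own number. Such correlations cannot show whether a number links rats.

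Leaving out 1 library at a time gave -0.018 to 0.22 for CTNNB1, -0.19 to 0.22 for AXIN2, -0.39 to 0.069 for NKD1, -0.15 to 0.48 for SFRP1, -1.21 to 0.055 for SFRP2 and -0.13 to 1.25 for WNT7B. WNT5A and WNT5B had an unadjusted edgeR p under 0.05 without vehicle 3, as did 1046 of all 11773 genes tested in that setting. WNT5A also had one without midkine 3-1, as did 1292 of all 11605 genes. The edgeR adjusted p was 0.535 for both genes without vehicle 3 and 0.445 for WNT5A without midkine 3-1. Scaling by total counts put the median of all genes at -0.10, against 0.04 with TMM. It left 60.1% of genes at an unadjusted p under 0.05 higher, against 78.9% with TMM, and put 70 pathway genes of 88 below 0, against 61. TCF7 was not run.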
